A study of Mus musculus with 3 samples.

Results

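Class-switched plasma cells are antibody-secreting cells whose heavy chain has been changed from IgM to IgA, IgG or IgE. They were examined in single-cell RNA of mouse (Mus musculus) spleen, measured in 3 libraries, 1 for each of the groups labelled MASH-Phe-free, MASH and Chow. A cell was selected on at least 10 UMIs of Jchain, at least 5 detected genes of 9 plasma cell genes (Mzb1, Xbp1, Sdc1, Tnfrsf17, Derl3, Fkbp11, Prdm1, Irf4 and Txndc5) and no UMI of Cd3e, and it was called switched where Igha, Ighe, Ighg1, Ighg2b, Ighg2c or Ighg3 had more UMIs than Ighm and Ighd. A UMI is a count of 1 captured RNA molecule. This gave 70 switched cells among 49499 barcodes kept in all, 40 in the MASH-Phe-free library, 13 in the MASH library and 17 in the Chow library. The same gate held 685 plasma cells led by Ighm, here called IgM plasma cells, which were 266, 191 and 228 in the same order of libraries. For the spleen samples the labels give the name of the treatment and the tissue, and the sources used here do not give their strain, sex, age, diet composition, duration, tumour status or number of animals. The series' design text describes C3H mice with diet-induced steatohepatitis and tumours of the HCA-1 liver cancer line, in connection with tumour RNA. With 1 library in each group, differences between groups have no replicate check, and the intervals given for them cover counting error only.

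A B cell first makes IgM. After activation it can exchange the constant part of its heavy chain while it keeps the variable part and with it the antigen specificity. Spleen is a site where short-lived plasma cells form after activation. IgA plasma cells are best known from the gut and other mucosal tissues, which they enter by chemokine receptors such as CCR9 and CCR10 and by the α4β7 integrin.

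The 70 cells divided into 41 led by Igha, 27 led by an IgG gene and 2 led by Ighe. The start of the first constant exon of each gene in the C57BL/6 reference is shown because a 5′ library reads into this stretch from the variable region, and because reads of the 4 related IgG genes must be told apart there. The first 60 bases of each are given 5′ to 3′ on the coding strand, from GENCODE M21 on GRCm38. Capitals in the IgG lines mark bases that differ from Ighg1 at the same position, with no gap allowed.
Igha: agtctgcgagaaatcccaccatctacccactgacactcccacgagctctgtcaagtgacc
Ighe: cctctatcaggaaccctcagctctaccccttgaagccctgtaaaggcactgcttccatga
Ighg1: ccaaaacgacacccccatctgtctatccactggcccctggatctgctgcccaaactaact
Ighg2b: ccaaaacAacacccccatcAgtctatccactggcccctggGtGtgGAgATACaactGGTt
Ighg2c: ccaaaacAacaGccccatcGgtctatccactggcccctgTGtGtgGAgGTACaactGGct
Ighg3: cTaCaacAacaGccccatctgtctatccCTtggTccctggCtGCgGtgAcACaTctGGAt
Ighm: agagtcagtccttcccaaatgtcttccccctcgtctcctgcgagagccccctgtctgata
All 7 genes lie on the minus strand of chromosome 12. Ighg2b differed from Ighg1 at 13 of these 60 bases, Ighg2c at 14 and Ighg3 at 18. The genes span chr12:113254830-113260236 (Igha), chr12:113269260-113273248 (Ighe), chr12:113325240-113330523 (Ighg1), chr12:113302965-113307933 (Ighg2b), chr12:113285325-113288932 (Ighg2c), chr12:113356224-113361232 (Ighg3) and chr12:113418558-113422730 (Ighm) in that build. C57BL/6 carries Ighg2c where some other strains carry Ighg2a, so a count of Ighg2c is a count of reads given to that reference gene.

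The leading gene held a median of 99.0% of the heavy-chain constant UMIs of a switched cell (lowest 51.1%, highest 100%), and 5 of the 70 cells were under 80%, of which 4 were led by an IgG gene. Its UMIs had a lowest value of 10, a median of 801.5 and a highest of 4691. No Ighm UMI was present in 43 of the 70 cells. For comparison, T cells of the same libraries, which make no antibody, held an Ighm UMI in 58.7% of cells in the MASH-Phe-free library, 62.7% in the MASH library and 63.8% in the Chow library at a median of 8623, 9362 and 9313.5 UMIs per cell. In those T cells no switched heavy-chain gene was found in more than 0.695% of cells, nor with more than 2 UMIs in a cell. The plot of each cell shows these values.

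**Figure D1:**
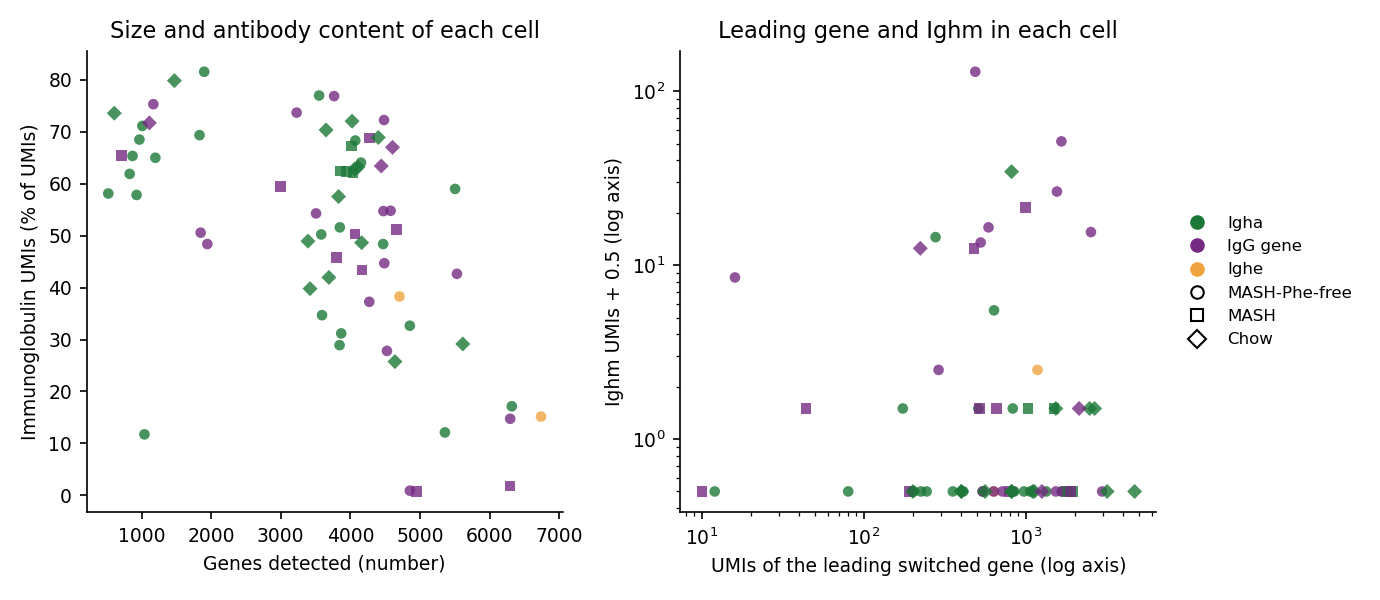
Each point is 1 of the 70 switched plasma cells, coloured by its leading heavy-chain gene and shaped by library. The left panel sets the percent of UMIs from immunoglobulin genes against the number of genes detected, and the right panel sets the Ighm UMIs plus 0.5 against the UMIs of the leading gene, both on log axes. The cells with no Ighm UMI form the lowest row of the right panel (43 of 70), and 3 cells lie under 5% immunoglobulin UMIs at the foot of the left panel.

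Immunoglobulin genes made up at least 5% of UMIs in 67 of the 70 cells. They made up a median of 56.2% of UMIs in switched cells, against 63.4% in IgM plasma cells. All 9 plasma cell genes were detected in 31 of the 70. In 3 cells, however, immunoglobulin genes made up only 0.900%, 1.79% and 0.750% of UMIs. These were an Ighg1-led cell of the MASH-Phe-free library, an Ighg1-led cell of the MASH library and an Ighg2b-led cell of the MASH library, each with 5 plasma cell genes and with 6, 7 and 8 of 8 B cell markers. Their leading gene had 16, 44 and 10 UMIs. At the other end, 17 of the 70 cells had under 2000 genes, 13 of 40 in the MASH-Phe-free library, 1 of 13 in the MASH library and 3 of 17 in the Chow library, and among IgM plasma cells 249 of 685 did. Around the rule, 1 cell of the MASH-Phe-free library would have been a member but for 7 UMIs of Jchain, and 8 cells would have been but for a marker count of 4 (5, 2 and 1 in the MASH-Phe-free, MASH and Chow libraries). Just inside, 7 members had exactly 5 markers, and the members with the fewest Jchain UMIs had 10, 18 and 20. Scrublet called none of the 70 a doublet, although it called only 1.80% to 1.97% of barcodes in each library, so a member that holds 2 cells could have been missed.

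Markers of other cell types were low but uneven. At least 3 of the 8 monocyte and macrophage markers were found in 10 of 40 switched cells in the MASH-Phe-free library, 1 of 13 in the MASH library and 1 of 17 in the Chow library. This list contains Ly6c2, which was found in all 70 cells. Lyz2, also of this list, was at 463 UMIs in the MASH-Phe-free library, 442 of them in 1 Igha-led cell. It was at 0 UMIs in the MASH library and 2 in the Chow library. In the MASH-Phe-free library Csf1r was at 9, Adgre1 at 2, C1qa at 9, C1qb at 6, Cd68 at 47 and Vcam1 at 5 UMIs. Of the neutrophil marker UMIs of switched cells in that library, 86.6% were in 1 cell. T cell markers summed to 3.55, 4.00 and 2.94 CPM, NK cell markers to 2.84, 2.0 and 7.35 CPM and erythroid markers to 40.4, 34.0 and 1.47 CPM in the same order of libraries, where CPM is the share of a gene among all UMIs of the summed cells on the usual CPM scale.

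Switched cells took a larger part of the plasma cells in the MASH-Phe-free library than in the other libraries. They were 40 of 306 plasma cells there, or 13.1% (exact Clopper-Pearson 95% interval 9.51 to 17.4), against 13 of 204 in the MASH library, or 6.37% (3.44 to 10.7). The Chow library held 17 of 245, or 6.94% (4.09 to 10.9). The share was 2.05 times as high in the MASH-Phe-free as in the MASH library (95% interval 1.13 to 3.74) and 1.88 times as high as in the Chow library (1.10 to 3.24). It was 0.918 times as high in the MASH as in the Chow library (0.457 to 1.85). IgM plasma cells were 1.68% of kept barcodes in the MASH-Phe-free library, 1.08% in the MASH library and 1.43% in the Chow library, with a ratio of 1.55 for MASH-Phe-free over MASH (1.29 to 1.86) and 1.18 for MASH-Phe-free over Chow (0.986 to 1.40). The interval of the share of switched cells in MASH-Phe-free over MASH included 1 where cells with markers of another cell type were left out (1.71, 0.893 to 3.27), where cells had to have 2000 genes (1.57, 0.825 to 2.99) and where 7 of 9 plasma cell genes were asked for (1.92, 0.968 to 3.82). For MASH-Phe-free over Chow it did so under the same settings (1.56, 0.853 to 2.84; 1.64, 0.889 to 3.02; and 1.41, 0.791 to 2.5). The part of RNA of other cells in the difference was not tested. With 1 library in each group, the group, the spleen and the preparation cannot be told apart.

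The libraries also differed in isotype. Igha, the gene of mucosal IgA, led 23 of 40 switched cells in the MASH-Phe-free library (57.5%, interval 40.9 to 73.0), 4 of 13 in the MASH library (30.8%, 9.09 to 61.4) and 14 of 17 in the Chow library (82.4%, 56.6 to 96.2). An IgG gene led 15, 9 and 3 cells. Of these, Ighg1 led 7, 1 and 2 cells, Ighg2b led 3, 3 and 0, Ighg2c led 5, 3 and 1, and Ighg3 led 0, 2 and 0. Both cells led by Ighe, the gene of allergy-linked IgE, were in the MASH-Phe-free library, with 637 and 1179 UMIs of it. Taken as 3 cells of the total, a count of 0 allows a share of up to 7.5% of switched cells in the MASH-Phe-free library, 23.1% in the MASH library and 17.6% in the Chow library. As a share of all plasma cells, Igha-led cells were 7.52% in the MASH-Phe-free library, 1.96% in the MASH library and 5.71% in the Chow library. The ratio of MASH-Phe-free over MASH was 3.83 (1.35 to 10.9) for Igha-led cells and 1.11 (0.496 to 2.49) for IgG-led cells. The interval for Igha-led cells included 1 without cells with markers of another cell type (2.93, 0.996 to 8.62), with at least 2000 genes (2.27, 0.756 to 6.81) and with 7 of 9 plasma cell genes (2.65, 0.906 to 7.78). Because heavy-chain genes chose the cells, these counts are a description.

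**Figure D2:**
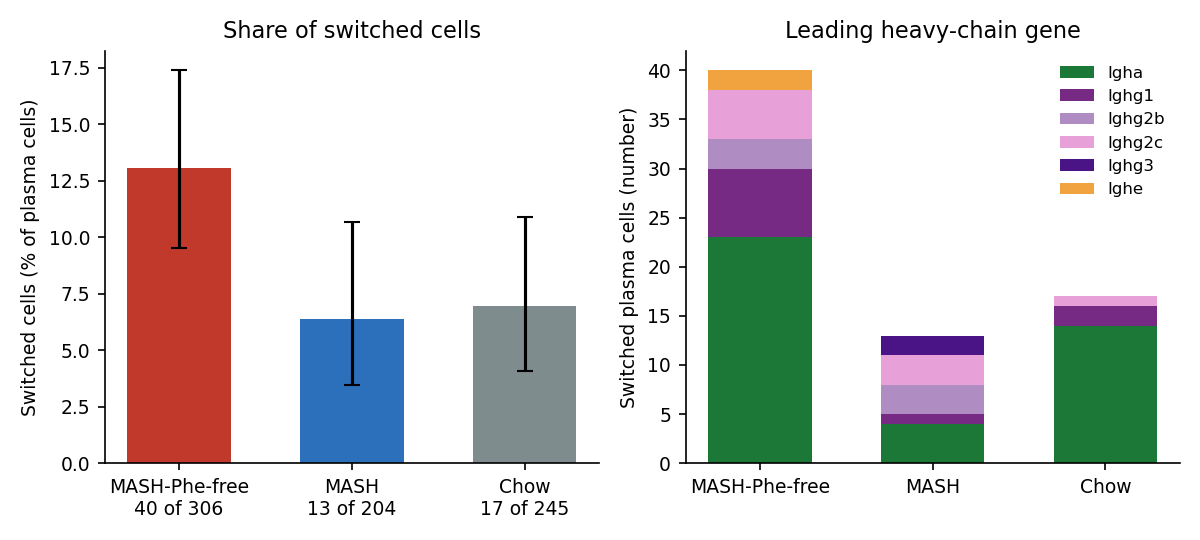
The left panel gives switched cells as a percent of all plasma cells in each library, with exact 95% binomial intervals, and the right panel gives the number of switched cells by leading heavy-chain gene. The MASH-Phe-free bar stands at 13.1%, the MASH bar at 6.37% and the Chow bar at 6.94%, and Igha is the largest block in each library, at 23, 4 and 14 cells.

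The variable segments differed between most switched cells. A heavy and a light segment could both be called in 67 of 70 cells, as the segment with at least 10 UMIs and at least 50% of its family. These 67 cells used 35 heavy and 33 light segments, led by Ighv1-14 in 6 cells and Ighv5-9 in 5. Light chains were mostly kappa. Lambda constant genes led in 2 of 40 cells of the MASH-Phe-free library, 4 of 13 of the MASH library and 1 of 17 of the Chow library, although by the light segment it was 0, 2 and 1. The same pair of segments was shared by 8 of 901 pairs of switched cells within libraries (0.888%), against 329 of 58623 pairs of IgM plasma cells (0.561%).

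The largest such set was 3 cells of the MASH-Phe-free library with Ighv1-52, Igkv2-137 and the joining segment Ighj4, of which 2 were led by Ighg1 and 1 by Ighg2c. The 2 segments are shown as the reference germline holds them, because they are what these cells shared across different constant genes. The cells' own sequences are not in the count tables. The first 300 coding bases of each, from GENCODE M21 on GRCm38, are as follows.
Ighv1-52: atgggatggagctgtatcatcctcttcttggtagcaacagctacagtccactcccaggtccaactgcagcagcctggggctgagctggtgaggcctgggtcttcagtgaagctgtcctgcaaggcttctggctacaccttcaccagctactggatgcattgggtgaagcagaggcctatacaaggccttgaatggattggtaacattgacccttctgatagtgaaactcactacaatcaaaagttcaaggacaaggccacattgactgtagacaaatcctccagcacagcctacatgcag
Igkv2-137: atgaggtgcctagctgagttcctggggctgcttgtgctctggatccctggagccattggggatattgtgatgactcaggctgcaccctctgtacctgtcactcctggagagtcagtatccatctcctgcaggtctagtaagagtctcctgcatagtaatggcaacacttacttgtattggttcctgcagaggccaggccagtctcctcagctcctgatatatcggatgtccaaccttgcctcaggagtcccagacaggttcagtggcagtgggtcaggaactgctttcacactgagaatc
Ighv1-52 lies at chr12:115145487-115145919 on the minus strand and Igkv2-137 at chr6:67555497-67556216 on the plus strand. Outside immunoglobulin genes, the counts of these 3 cells differed from each other by 2.48 to 4.27 times the variance of Poisson sampling, so by this measure the barcodes were not repeats of 1 cell. A shared pair of segments does not show a shared ancestor, because segments of a strain other than C57BL/6 take the nearest reference name and the junctions were not read. Other sets were 2 Igha-led cells with Ighv1-14 and Igkv1-110, 2 Igha-led cells with Ighv1-80 and Igkv3-5, which an IgM plasma cell also carried, and 2 Ighg2c-led cells of the MASH library with Ighv1-62 and Igkv3-7. In 2 more pairs the barcodes held counts within sampling noise of each other. These were 2 Ighg1-led barcodes with Ighv1-14 and Igkv3-2 (0.925 times the Poisson variance, 9815 and 9974 UMIs) and 2 Igha-led barcodes with Ighv3-6 and Igkv10-96 (0.995 times, 2070 and 39251 UMIs). The shallow barcode of the second pair was also as low as 1.16 against a cell with other segments. If each such pair is 1 cell, the MASH-Phe-free library holds 38 switched cells.

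Against IgM plasma cells of the same libraries, switched cells had higher RNA of homing genes such as Itgb7 and, mainly in Igha-led cells, Ccr10. Their RNA of Il10, Bcl2 and 7 amino acid stress genes was lower. UMIs were summed over the cells of each class and library, and the sums were compared with edgeR's quasi-likelihood test with the library as a block. Of 9311 genes tested, 160 (1.72%) were higher and 238 (2.56%) lower in switched cells at a Benjamini-Hochberg adjusted p under 0.05, and 6 and 56 of these were immunoglobulin genes. Without normalization factors the counts were 180 higher and 153 lower, with the median of all genes at 0.16 instead of -0.02 on the log2 scale. Without the MASH-Phe-free library, which holds 40 of the 70 cells, they fell to 50 and 124. A bulk sum cannot tell fewer cells with an RNA from less of it in each cell.

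The receptors and integrins of homing were the clearest group of higher genes. Ccr10, the receptor for the epithelial chemokines CCL27 and CCL28, was at 123, 88.1 and 113 CPM in switched cells of the MASH-Phe-free, MASH and Chow libraries, against 12.5, 9.14 and 8.07 CPM in IgM plasma cells. Every switched sum of Ccr10 was above every IgM sum, though how many of all genes did so was not counted. Its log2 fold change was 3.28 (SD over the 3 libraries 0.58, edgeR adjusted p = 0.00155). Of its 295 UMIs in switched cells, 268 were in Igha-led cells. In IgG-led cells its log2 fold change over IgM plasma cells was 0.66 and did not pass (edgeR adjusted p = 0.697). Itgb7, the β7 chain that pairs with α4 or αE, was at 96.5, 94.1 and 141 CPM in switched cells, against 9.16, 12 and 9.27 CPM in IgM plasma cells (log2 fold change 3.27, SD 0.74, n = 3 libraries, edgeR adjusted p = 0.00203). Its partner Itga4, the α4 chain, was higher by 1.12 (edgeR adjusted p = 0.0456). Klf2, a transcription factor of lymphocyte egress, was at 209, 132 and 210.3 CPM in switched cells, against 14.2, 23.0 and 26.6 CPM in IgM plasma cells (log2 fold change 2.97, edgeR adjusted p = 0.00293). In IgG-led cells without the 3 cells of low immunoglobulin content, its log2 fold change over IgM plasma cells was -1.10 (edgeR adjusted p = 0.292). Cxcr3, an inflammatory chemokine receptor, was at 55.3, 16 and 2.94 CPM, against 3.75, 1.41 and 0.515 CPM (log2 fold change 3.36, edgeR adjusted p = 0.00415), with 13 switched cells carrying it and 30.7% of its UMIs in 1 of them. In all, 6 of 19 tested homing genes rose, where 1.72% of all genes did, and 1, the tetraspanin Cd9, fell, with a list median of 0.59 against -0.02 for all genes. Cd9 did not pass under 9 of 17 other settings, nor Itga4 under 7. Without the MASH-Phe-free library 3 homing genes rose. Ccr9 (log2 fold change 1.01, edgeR adjusted p = 0.226), S1pr1 (1.11, 0.0623) and Cxcr4 (-1.16, 0.133) did not pass.

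The 12 genes named by rank for the largest rise were Tox, Osbpl3, Runx2, Ust, Slpi, Crip1, Pycard, Pik3r6, Prf1, Adap1, Anxa2 and Palm. Runx2, a transcription factor best known from bone, was at 19.9, 20.01 and 57.3 CPM in switched cells, against 0.833, 0.527 and 1.20 CPM in IgM plasma cells (log2 fold change 5.00, SD 0.75, edgeR adjusted p = 0.00181). Pycard, the adaptor of inflammasomes, was at 459, 296 and 446 CPM, against 22.9, 21.8 and 23.2 CPM (3.95, SD 0.51, edgeR adjusted p = 0.00155). Neither gene had overlapping sums. Both were chosen by rank among genes with the same direction in all 3 libraries, so this adds no support. Of the 77 Runx2 UMIs in switched cells, 75 were in Igha-led cells. Tox, a nuclear factor of T and other lymphoid cells, had the largest log2 fold change at 6.30 (edgeR adjusted p = 0.00279), on 46 UMIs in 15 switched cells and 4 UMIs in 3 IgM plasma cells. Osbpl3, an oxysterol-binding protein, was at 31.2, 10.01 and 48.5 CPM, against 0, 0.352 and 0.859 CPM (6.16, edgeR adjusted p = 0.00259). Crip1, a small LIM protein, was at 898, 446 and 1851 CPM, against 50.4, 51.1 and 35.0 CPM (4.13, edgeR adjusted p = 0.0204). Slpi, a secreted protease inhibitor, was at 3909, 12454 and 453 CPM, against 101, 215 and 26.1 CPM. It had 12042 UMIs in switched cells, of which 47.8% were in 1 cell (4.91, edgeR adjusted p = 0.0113). Anxa2, a membrane-binding annexin, was higher by 3.80 and Adap1 by 3.83. Prf1, perforin of killer cells, was higher by 3.92 with an SD of 2.36 over the 3 libraries, on 44 UMIs in 16 switched cells. Ust, Pik3r6 and Palm rested on 28, 17 and 18 UMIs in switched cells. Igha-led cells held 73 of the 82 Osbpl3, 41 of the 44 Prf1, 2453 of the 2748 Crip1 and 22 of the 46 Tox UMIs. They held 21 of the 28 Ust, 14 of the 17 Pik3r6 and 15 of the 18 Palm UMIs. Tox, Osbpl3, Runx2, Ust, Pik3r6, Prf1 and Palm were not tested in IgG-led cells against IgM plasma cells. Slpi did not pass in Igha-led cells against IgM plasma cells (1.85, edgeR adjusted p = 0.260).

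**Figure D3:**
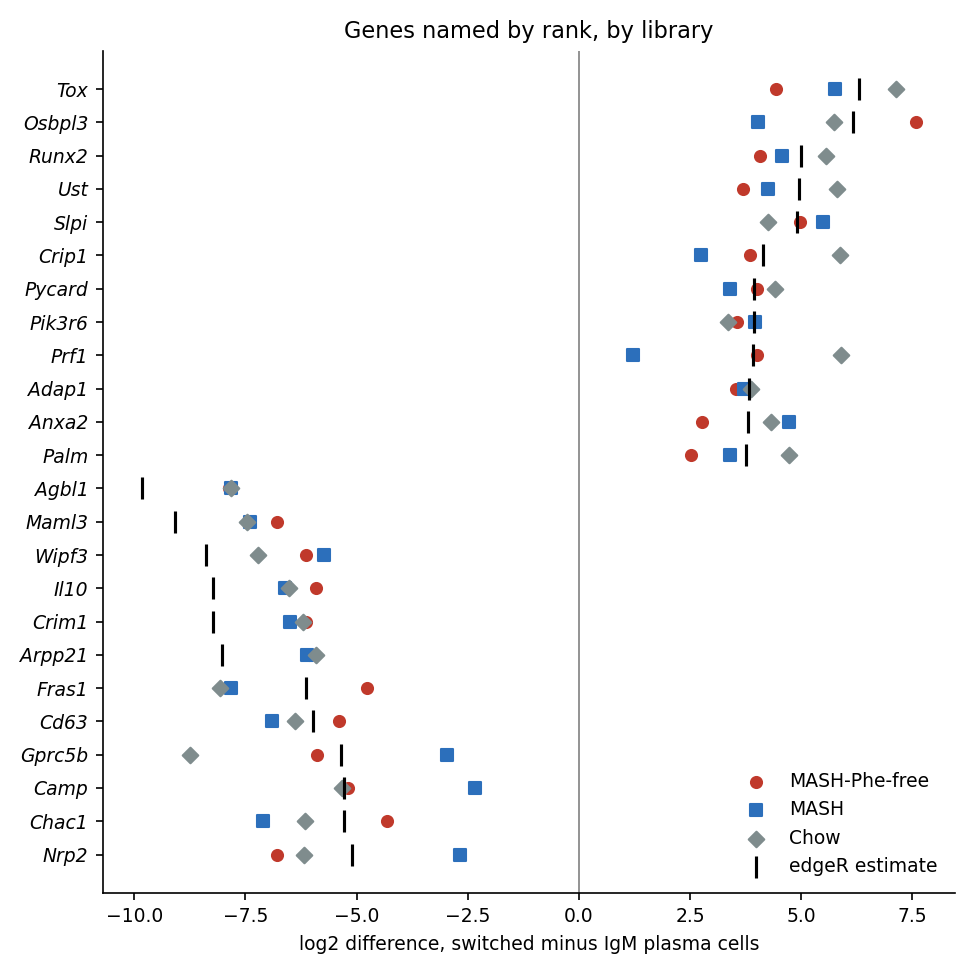
Each row is a gene named by rank, 12 higher and 12 lower in switched cells, and each coloured point is the log2 difference of switched minus IgM plasma cells in 1 library, with the edgeR estimate as a black bar. All points of the upper 12 genes lie right of 0 and all points of the lower 12 left of it, and the estimates of genes with no UMI in switched cells lie beyond their points because they depend on the prior count.

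The genes with the largest falls had few or no UMIs in switched cells. Il10, the anti-inflammatory cytokine, had 0 UMIs in switched cells of all 3 libraries, against 7.91, 12.7 and 13.9 CPM in IgM plasma cells, where 106 cells carried it. Set against a floor of 3 UMIs over all switched cells, or 1.16 CPM, its level was at least 9.69-fold lower (edgeR adjusted p = 0.0306). Agbl1 was likewise at 0, against 30.7, 29.4 and 34.2 CPM, and at least 27.1-fold lower. Maml3, a Notch co-activator, was at least 17.7-fold, Wipf3 10.9-fold, Crim1 9.13-fold and Arpp21 7.70-fold lower. Cd63, a tetraspanin of secretory vesicles, was at 0.709, 0 and 0 CPM in switched cells, against 29.6, 15.6 and 12.5 CPM in IgM plasma cells (ratio 0.0193, exact Poisson interval 0.000487 to 0.108, edgeR adjusted p = 0.00306). Gprc5b, an orphan receptor, was at 0.709, 4.00 and 0 CPM, against 42.1, 25.1 and 65.1 CPM (ratio 0.0263, exact Poisson interval 0.00541 to 0.0771, edgeR adjusted p = 0.00366). Fras1 had 1 UMI in switched cells, against 546 in IgM plasma cells (ratio 0.0132, exact Poisson interval 0.000334 to 0.0740). Nrp2 had 1, against 229 (ratio 0.0316, exact Poisson interval 0.000795 to 0.178). Camp, a neutrophil granule gene, was also among the 12, at 4.26, 0 and 7.35 CPM against 132, 0.527 and 335 CPM. With Camp moved the neutrophil markers, at 223, 4.00 and 30.9 CPM in switched cells, against 1072, 7.91 and 2946 CPM in IgM plasma cells. Over all libraries, 41.4% of the Camp UMIs of IgM plasma cells were in 1 cell. In the MASH-Phe-free library alone, 931 of the 951 Camp UMIs of IgM plasma cells were in 1 cell. The part of neutrophil RNA in the Camp result was not tested.

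Several genes of the amino acid and ER stress response under ATF4 fell. Of 18 tested, 7 fell, where 2.56% of all genes did, and none rose by edgeR with all libraries, with a list median of -0.62 against -0.02 for all genes. Slc3a2, the heavy subunit of the LAT1 amino acid transporter, was at 189, 156 and 132 CPM in switched cells, against 472, 507 and 484 CPM in IgM plasma cells (log2 fold change -1.80, SD 0.23, edgeR adjusted p = 0.0165). Its partner Slc7a5, which carries large neutral amino acids such as phenylalanine, was at 31.9, 14.0 and 16.2 CPM, against 61.8, 44.6 and 39.2 CPM (-1.40, edgeR adjusted p = 0.017). Chac1, a glutathione-degrading enzyme, had 1 UMI in switched cells and 266 in IgM plasma cells (ratio 0.0272, exact Poisson interval 0.000685 to 0.153, edgeR adjusted p = 0.00925). Atf5 (-2.00), Ddit3 (-1.69), Cebpb (-1.26) and Mthfd2 (-1.12) fell as well, and Mthfd2 did not pass under 10 of 16 other settings. Without the MASH-Phe-free library, 1 of 17 tested passed, with a median of -0.96. Without the Chow library, without normalization factors or without the library as a block, 4 of 18 fell, and with cells thinned to the same number of UMIs 1 of 10 did. Ddit4, an inhibitor of mTOR signalling, passed as higher without the Chow library and by DESeq2, among other settings. None of 8 tested genes of phenylalanine handling passed in either direction (median 0.07).

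Of 14 tested survival genes, 3 fell, where 2.56% of all genes did, and none rose. Bcl2, which blocks apoptosis, was at 9.22, 40.0 and 26.5 CPM in switched cells, against 108, 114 and 177 CPM in IgM plasma cells (log2 fold change -2.74, SD 0.99, edgeR adjusted p = 0.00881). Mcl1, on which plasma cells depend for survival, was at 197, 220 and 193 CPM, against 194, 203 and 180 CPM, and did not pass (edgeR adjusted p = 0.879). Tnfrsf13b, a receptor of the survival factors BAFF and APRIL, likewise did not (0.919). Il6st, the shared receptor chain of the IL-6 family, and Cd38 fell by 1.81 and 1.88, and Cd38 did not pass under 10 of 16 other settings. In the switching list of 21 tested genes 2 rose, where 1.72% of all genes did, and 1 fell, where 2.56% did. Runx2 and the TGF-β receptor chain Tgfbr1 rose (by 5.00 and 1.22), and Il5ra, the IL-5 receptor, fell by 3.61. Rora and Tbx21 were below the filter on counts, with 4 UMIs and 1 UMI in switched cells. Of 18 tested surface receptors 1 rose and 3 fell, beside the same 1.72% and 2.56%. Cd80 rose by 2.30, and Ly6k and Ly6d fell by 3.64 and 2.02. Lag3, with 2 UMIs in switched cells and 231 in IgM plasma cells, also fell (ratio 0.0626, exact Poisson interval 0.00753 to 0.229). No gene passed of 40 in the secretory and ER list, 20 in the B identity list, 15 in antibody glycosylation, 18 in cycling and 16 in type I interferon, with medians of 0.22, 0.26, 0.13, 0.67 and 0.13. Without the MASH-Phe-free library the median of the cycling list was -0.12, and without the MASH library that of the B identity list was -0.27. Without the 3 cells of low immunoglobulin content 2 of 19 B identity genes fell, with a median of -0.34.

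**Figure D4:**
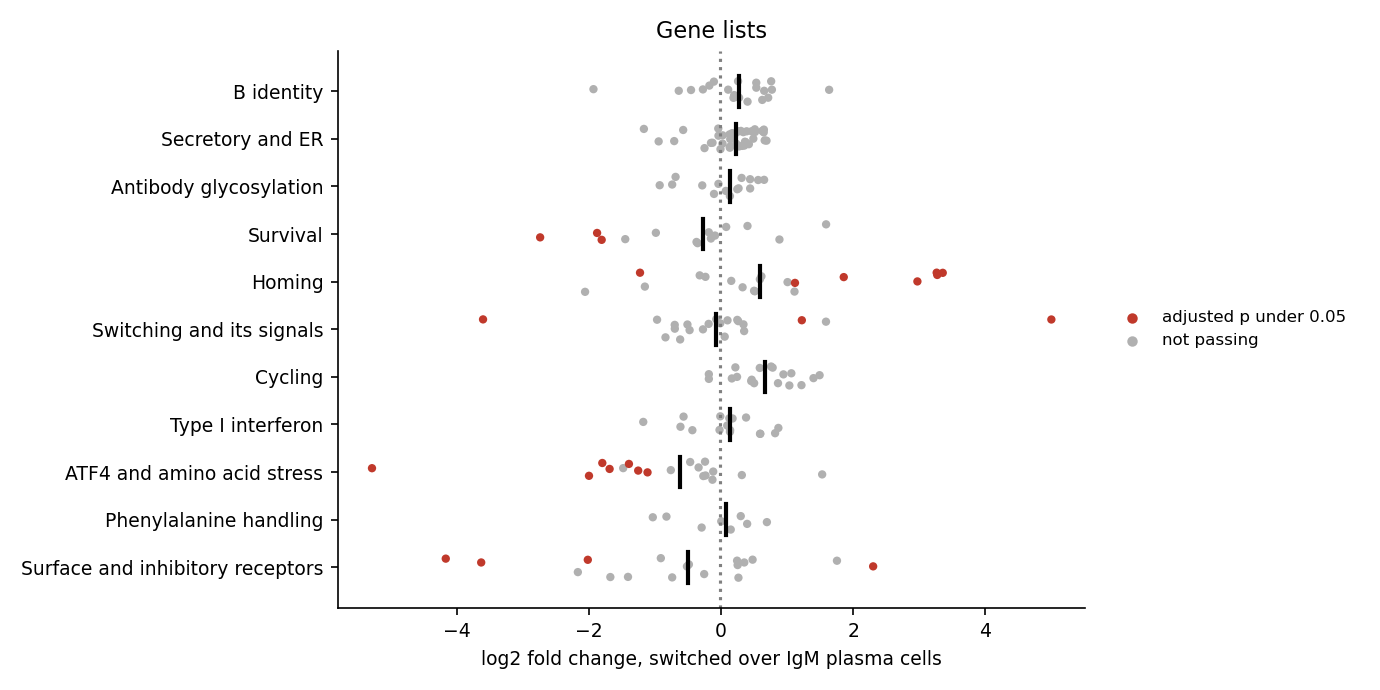
Each point is a tested gene of 1 of 11 lists, placed by its log2 fold change of switched over IgM plasma cells, in red where the edgeR adjusted p was under 0.05. Black bars are list medians and the dotted line is the median of all 9311 genes (-0.02). The red points lie right of 0 in the homing list for 6 of 7 genes and left of 0 in the amino acid stress list for all 7.

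Ccr10 and Runx2 were higher in Igha-led than in IgG-led cells. When Igha-led and IgG-led cells were each set against IgM plasma cells, 223 genes (2.49%) were higher and 341 (3.81%) lower for Igha-led cells, and 106 (1.17%) higher and 328 (3.62%) lower for IgG-led cells. Of 19 B identity genes, 4 were lower and none higher in Igha-led cells (median -0.61), and 6 were higher and none lower in IgG-led cells (median 0.43). Without the 3 cells of low immunoglobulin content, 3 were lower and none higher in IgG-led cells (median -0.19). Both comparisons use the same IgM plasma cells. Ccr10 was at 182 CPM in Igha-led cells and 25.7 CPM in IgG-led cells, with log2 fold changes over IgM of 4.17 (edgeR adjusted p = 3.38e-06) and 0.66 (0.697). Runx2 was at 51.0 CPM in Igha-led cells and 1.97 CPM in IgG-led cells. Slpi went the other way, at 419 CPM in Igha-led cells and 9796 CPM in IgG-led cells (direct test, edgeR adjusted p = 0.725). Itgb7 was at 144 and 59.2 CPM and passed in both (3.72 and 2.39), as did Pycard (4.22 and 2.60), Adap1, Anxa2 and Crip1. Il10, Bcl2, Slc3a2 and Slc7a5 were lower in both. Ccr9, the gut-homing receptor, was higher in Igha-led cells by 1.98 (edgeR adjusted p = 0.0103) and did not pass in IgG-led cells. It was below the filter on counts when both were compared directly, so that difference was not tested.

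Set directly against IgG-led cells in an exploratory test, Igha-led cells differed in few genes. Of 3052 genes tested, 5 were higher (0.164%) and 1 lower (0.0328%) by edgeR, with 130 and 78 at an unadjusted p under 0.05. Runx2 (log2 fold change 4.64) and Ccr10 (3.54) were higher and Ms4a1, which encodes the B cell marker CD20, lower (-4.12), each at an edgeR adjusted p of 0.0238 and in the same direction in all 3 libraries. Ms4a1 was at 6.79 CPM in Igha-led cells and 229 CPM in IgG-led cells. The 3 cells with under 5% immunoglobulin UMIs are all IgG-led. Without them the counts were 32 higher and 15 lower of 2644 tested, and Ms4a1 was lower by 3.65 (edgeR adjusted p = 0.00473). Without the Chow library, which holds 3 IgG-led cells, no gene passed by edgeR (95 higher and 89 lower at an unadjusted p under 0.05). Without the MASH library the counts were 95 and 37 of 3921 tested, and without the MASH-Phe-free library 13 and 4 of 1853. DESeq2 called 20 higher and 9 lower with all libraries. Ifitm3 (2.86), Ptms (2.96) and Cited2 (1.94) were higher without passing (edgeR adjusted p = 0.0687 each). Ltb (-2.29), Oosp1 (-2.54), Pon3 (-1.90), Tnfrsf13c (-2.26) and Slc16a6 (-1.99) were lower without passing. Cells of under 2000 genes left out, 2 genes were higher and none lower (117 and 78 at an unadjusted p under 0.05), and Runx2 and Ccr10 were at an edgeR adjusted p of 0.0504.

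**Figure D5:**
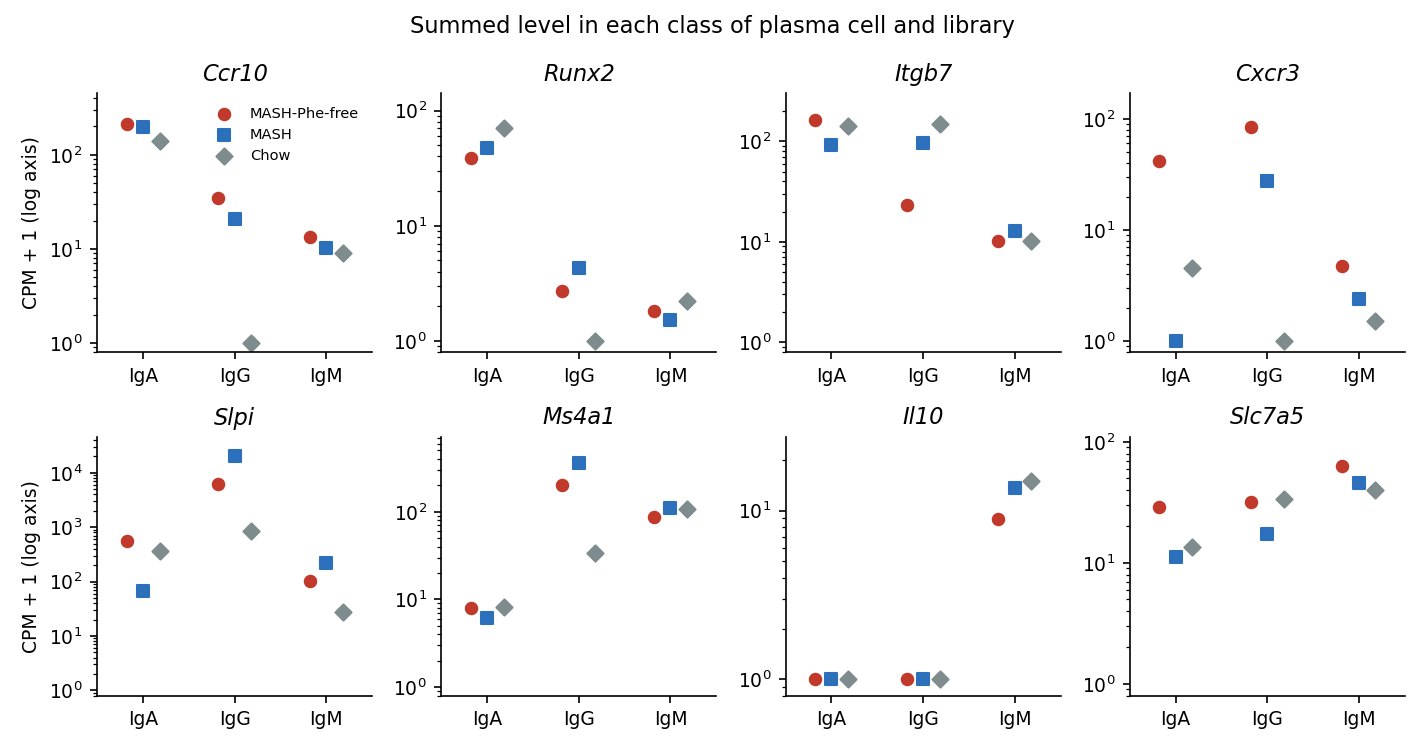
Each panel is a gene, and each point is the summed CPM plus 1 of 1 library in Igha-led, IgG-led or IgM plasma cells, on a log axis. Ccr10 and Runx2 stand highest in the Igha-led cells, Slpi in the IgG-led cells, and Il10 has no UMI in any Igha-led or IgG-led sum.

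Between the MASH-Phe-free and MASH libraries, the summed level of all 18 cycling genes in switched cells was 1313 CPM in the MASH-Phe-free library and 260 CPM in the MASH library, beside 653 CPM in the Chow library. In IgM plasma cells it was 494, 275 and 613 CPM. Without the cells of low immunoglobulin content it was 1060 CPM in MASH-Phe-free and 154 CPM in MASH switched cells. Of 2807 non-immunoglobulin genes with at least 50 UMIs in at least 5 cells, 65 (2.32%) were at least 2-fold higher and 44 (1.57%) at least 2-fold lower, by the log2 ratio with 10 CPM added to each level. A gene could reach this minimum through 1 library alone, as Birc5, Mt1, Hmgb2, Smc2 and Ctla4 did. Genes were ranked by ratio only where the interval excluded 1. The genes named by rank and their intervals are therefore a description. Hmgb2, a chromatin protein of dividing cells, was at 328 CPM in MASH-Phe-free switched cells, against 32 CPM in MASH switched cells (ratio 10.2, exact Poisson interval 6.23 to 18.1). Smc2, a condensin subunit, was at 35.5 CPM in MASH-Phe-free switched cells, against 4.00 CPM in MASH switched cells. Birc5, which encodes survivin, had 56 UMIs in 6 cells, against 0. Mki67 was at 145 CPM, against 52.0 CPM (2.79, 1.85 to 4.38). Few cells held the UMIs of the cycling list, since 3 of the 40 MASH-Phe-free cells had 64.2% of them and 3 of the 13 MASH cells 60.8%. In the Chow library 1 of the 17 switched cells had 81.1% of them. At least 5 cycling genes were detected in 11 of 40 cells (27.5%, 14.6 to 43.9), against 5 of 13 in the MASH library (38.5%, 13.9 to 68.4), at a median of 35244.5 and 44846 UMIs per cell. Mt1, a metallothionein, was at 128 CPM, against 6.0 CPM (ratio 21.3, 7.16 to 104), on 180 and 3 UMIs. In IgM plasma cells it was at 121 and 46.8 CPM.

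The 4 genes named by rank for the lowest ratio in MASH-Phe-free over MASH switched cells were Ltb, Ctla4, Ly6a and Mndal. Ltb, a TNF-family cytokine of B cells, was at 35.5 CPM, against 216 CPM (ratio 0.164, 0.115 to 0.231). Ly6a, an interferon-induced surface protein, was at 193 CPM, against 716 CPM (0.269, 0.229 to 0.316), and in IgM plasma cells at 431 and 760 CPM. Ctla4, an inhibitory receptor, was at 27.7 CPM, against 110 CPM (0.251, 0.162 to 0.386), and lower also in IgM plasma cells (0.554). Mndal, an interferon-induced nuclear protein, was at 29.1 CPM, against 84.1 CPM. The summed level of all 26 interferon genes was 1428 CPM in MASH-Phe-free and 1969 CPM in MASH switched cells, where 3 cells held 56.7% of it, and without the 3 cells of low immunoglobulin content it was 1403 and 1716 CPM. That of all 22 B identity genes was 6979 CPM in MASH-Phe-free and 11483 CPM in MASH switched cells, where 3 cells held 63.5% of it. Without the cells of low immunoglobulin content it was 6677 and 7248 CPM. Over the genes that then met the minimum, 205 were at least 2-fold higher and 11 lower. Their median log2 ratio was 0.25, beside 0.05 for the genes compared in all switched cells. Among Igha-led cells 0 of 8 B identity genes were at least 2-fold lower (median log2 ratio 0.47, beside 0.44 for all genes compared). Among IgG-led cells 7 of 13 were (-1.08, beside -0.12 for all genes compared). Ltb, Ctla4, Ly6a and Mndal were lower in both. Igha led 23 of 40 MASH-Phe-free and 4 of 13 MASH switched cells, so isotype and group cannot be told apart in the sums of all switched cells.

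Between the MASH and Chow libraries, the summed level of the 22 B identity genes was 11483 CPM in MASH and 4040 CPM in Chow switched cells, and 7248 and 4040 CPM without the 2 MASH cells of low immunoglobulin content. In IgM plasma cells it was 6467 and 6658 CPM. Of 1573 genes compared, 100 (6.36%) were at least 2-fold higher and 28 (1.78%) at least 2-fold lower. Over the genes that met the minimum in each setting, 35 were higher and 51 lower without the cells of low immunoglobulin content. Among Igha-led cells 12 were higher and 109 lower. The median log2 ratio of the genes compared was -0.04 and -0.33 in these settings, beside 0.21 in all switched cells. H2-Aa, an MHC class II chain, was at 905 CPM in MASH switched cells, against 198 CPM in Chow switched cells (ratio 4.56, 3.75 to 5.56). In Igha-led cells it was at 260 and 219 CPM. Cd52, a glycoprotein of the lymphocyte surface, was at 2103 CPM, against 198 CPM (10.6, 8.85 to 12.8), and in Igha-led cells at 1240 and 215 CPM. Tnfrsf13c, the BAFF receptor, and Cd37 were higher by ratios of 5.44 and 3.89, and neither was higher in Igha-led cells. Atp1b1, a sodium pump subunit, was at 74.0 CPM, against 350 CPM (0.212, 0.145 to 0.300), and in Igha-led cells at 189 and 380 CPM. Lztfl1, Itgam and the noncoding Airn were lower by ratios of 0.157, 0.178 and 0.241. Cd37 met the minimum through the MASH library alone, and Atp1b1, Lztfl1 and Airn through the Chow library alone. The ratios and intervals of the genes named by rank are therefore a description. The isotype makeup of the compared sums differs, with 4 of 13 Igha-led cells in the MASH library and 14 of 17 in the Chow library, so isotype and group cannot be told apart in the sums of all switched cells.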

How the data were processed

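Spleen cells were profiled in 3 droplet libraries of the 5′ kind, 1 for each group, with Cell Ranger 9.0.1 and Seurat 5.3.0 named in the submitters' processing notes, which also name GRCm39. The authors deposited raw UMI counts per gene and barcode, along with gene identifiers, symbols and barcodes. The files held 33696 genes and 138787602 to 160115282 UMIs per library. Barcodes were kept from 300 genes and 500 UMIs upward if mitochondrial genes held no more than 10% of UMIs, and 65 to 89 barcode sequences were shared between each pair of libraries. Scrublet, run in scanpy 1.11.5, removed no barcode. UMIs of switched and IgM plasma cells were summed within each library and compared with edgeR 4.0.16 in R 4.3.3 (TMM, filterByExpr, quasi-likelihood test, Benjamini-Hochberg over all genes tested, threshold 0.05). The pairing is by library, since each library gives both classes, and the library is the block. On simulated counts with 100 genes changed 4-fold in each direction, 95 of the raised and 86 of the lowered genes were recovered, and 5 of 9149 unchanged genes were called. The changed genes were drawn from non-immunoglobulin genes of higher counts, and all genes had the same dispersion. The rates therefore do not cover genes with few UMIs, or genes with most of their UMIs in 1 cell.

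Genes named by rank were the 12 with the largest change in each direction among those past the threshold. Only genes with the same direction in all 3 libraries were ranked. Between libraries they were the 4 highest and 4 lowest ratios among genes with an interval that excluded 1. No cell could hold over 30% of such a gene's UMIs. The intervals of these genes exclude 1 by selection. Immunoglobulin, mitochondrial, ribosomal, haemoglobin, sex-linked and predicted genes and those of the selection rule were not eligible, and other genes were named whatever their values. The comparison of Igha-led with IgG-led cells, the fit of IgG-led against IgM plasma cells, the summed levels of lists, and the settings with at least 2000 genes, with at least 5% immunoglobulin UMIs and with repeated barcodes counted once were added after the data were seen. The members and lists were chosen with earlier results of these data known. DESeq2 1.42.0 and other settings served as alternatives. Intervals are at 95%. Whether the libraries hold 1 or several animals is not given in the sources used here, so p-values measure the spread between these libraries.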

Additional observations from a re-analysis of the deposited data

How the results depend on the processing

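The ratio of the share of switched cells in MASH-Phe-free over MASH was 1.92 with at least 7 of 9 plasma cell genes, 1.71 without cells that carried 3 markers of another type, and 1.57 with at least 2000 genes, and in MASH-Phe-free over Chow 1.41, 1.56 and 1.64 under the same settings. The ratio of Igha-led cells in MASH-Phe-free over MASH was 2.65, 2.93 and 2.27. Each of these intervals included 1, and the cause was not tested. Under the other settings these ratios kept intervals above 1, and the shares of switched and of Igha-led cells stayed within their intervals.

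For switched against IgM plasma cells, the counts of higher and lower genes were 180 and 153 without normalization factors, 270 and 367 without immunoglobulin genes, 345 and 680 without a filter on counts, and 37 and 69 of 3413 tested with cells thinned to 4822 UMIs. Leaving out 1 library gave 50 to 167 higher and 124 to 266 lower. IgG-led cells gave 106 higher, and 100 higher and 384 lower with at least 5% immunoglobulin UMIs, where Klf2 turned to -1.10. The library pairs the sums by design, and without the replicate block the counts were 208 and 265, and 5 and 1 for Igha-led against IgG-led cells. Igha-led against IgG-led cells gave 32 and 15 with at least 5% immunoglobulin UMIs, 2 and 0 with at least 2000 genes, 20 and 9 by DESeq2, and 0 to 95 higher and 0 to 37 lower without 1 library.

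Of genes at least 2-fold higher and lower in MASH-Phe-free over MASH, there were 103 and 7 without the cell with most UMIs of each gene, 16 and 12 with an offset of 50 CPM, 205 and 11 with at least 5% immunoglobulin UMIs, 222 and 14 among Igha-led cells, and 34 and 99 among IgG-led cells. For MASH over Chow, 55 were lower without immunoglobulin UMIs in the total, 37 were higher without the top cell, 46 and 8 were higher and lower with the larger offset, 35 and 51 with at least 5% immunoglobulin UMIs, 12 and 109 among Igha-led cells, and 246 and 9 among IgG-led cells. The number of genes that met the minimum differs between some of these settings, so the counts are not shares of the same genes. The median log2 ratio of the genes compared moved as well. Among Igha-led and IgG-led cells it was 0.44 and -0.12 for MASH-Phe-free over MASH, and -0.33 and 0.80 for MASH over Chow. The 3 to 23 cells behind each Igha or IgG sum limit these levels.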
